A study of Mus musculus with 22 samples.

Results

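Tbx21, Eomes, Stat4, Il12rb2 and Ifng encode the core of the type 1 programme, the set of regulators with which T cells and natural killer cells commit to making interferon gamma. Their levels are described here in 6 groups of mouse gamma-delta thymocytes. The genes were taken by symbol from probe sets that list exactly 1 gene, and 5 of the 5 were found among 14860 such genes on the array, with 1 probe set each. All 5 also passed the filter on low values, among 8545 genes tested. The thymocytes came from adult female C57BL/6 mice aged 8 weeks and were sorted on the variable segment of the gamma chain, as Vg1.1+ or Vg2+ (Vgamma1.1+ and Vgamma2+ in full), and on the surface proteins CD24 and CD73. All groups share this strain, sex, age and tissue, and none was treated or carries an engineered allele according to the labels. The Vg1.1+ sorts gave 4 arrays of CD24+CD73- cells, 3 of CD24+CD73+ cells and 4 of CD24-CD73+ cells, and the Vg2+ sorts gave 3, 4 and 4 arrays in the same order of stages. The study's question was what gene expression the subsets have in common as they mature. CD24 is lost as thymocytes mature, and CD73 appears on cells that have committed to the gamma-delta fate, so the order of stages used here is CD24+CD73-, CD24+CD73+ and CD24-CD73+.

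In the type 1 pathway, interleukin 12 binds a receptor of the chains IL-12Rβ1 and IL-12Rβ2, the products of Il12rb1 and Il12rb2. The receptor activates the transcription factor STAT4, the product of Stat4, which acts on genes that include Ifng. Tbx21 encodes T-bet and Eomes encodes eomesodermin, related T-box transcription factors that bind the Ifng locus and the genes of cytotoxic effectors. Gamma-delta T cells are known for acquiring a capacity to make interferon gamma or interleukin 17 already in the thymus, and T-bet and eomesodermin are known regulators of the interferon gamma fate.

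All values are log2 expression values from an Affymetrix mouse exon array, as the authors deposited them, with 1 array per sample. Differences are log2 differences between group means with their standard error (SE), fitted with limma to all 22 arrays, and adjusted p-values are Benjamini-Hochberg values over the 8545 tested genes, called at 0.05. Replicates are described as biological, but whether each had its own mice is not said, so a p-value here covers just the spread between these samples, and the small number of arrays limits the precision. The median of the whole table was 4.55, and values near or below it lie at the dim end, where arrays respond weakly to changes in RNA. The SD of the log2 values on an array ran from 1.61 to 2.09. The pair of narrowest spread stood apart, at 1.61 for replicate 1 of the Vg1.1+ CD24-CD73+ group and at 1.71 for replicate 3 of the Vg2+ CD24+CD73+ group. Calls of the 5 genes that turn on them are given with and without them, as are the counts stated for lists of pathway genes. Counts of the lists that are not stated can move without them too. Replicates of a group correlated at r = 0.875 to 0.990 over genes, and no pair of arrays held identical values. Of 6 T-cell markers on the array, Cd3d (10.61 to 11.67) and Cd3g (10.47 to 11.20) were steady over all arrays, and Cd3e ran from 8.24 to 11.08. From the first stage to the last, Cd247, Cd5 and Thy1 fell in Vg1.1+ cells and Cd247 fell in Vg2+ cells. The Cd5 call was lost without the arrays of narrowest spread (-0.25, limma adjusted p = 0.112). It was also lost with a block for the replicate number (0.0645), with no filter (0.0528) and with array spread as a covariate (0.14). With the gain of CD73, Thy1 fell in Vg1.1+ cells, and Cd247 and Thy1 fell in Vg2+ cells. The Thy1 call in Vg1.1+ cells was lost with that block (adjusted p = 0.0562). Without the arrays of narrowest spread 1 marker rose and 2 fell in Vg2+ cells at this step. With the loss of CD24 in Vg2+ cells, Thy1 rose and Cd5 fell. Between the subsets, Cd5 was higher in Vg1.1+ cells at CD24+CD73- and at CD24-CD73+. Thy1 was lower in Vg1.1+ cells at CD24-CD73+. All 6 stayed above the table's median on every array. The RNA was measured in bulk, so that fewer cells of a type and less RNA per cell cannot be told apart.

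Il12rb2, the signalling chain of the interleukin 12 receptor, was highest in CD24+CD73- cells of both subsets and lower at both later stages. In Vg1.1+ cells its log2 values were 6.06, 5.99, 6.16 and 5.76 in CD24+CD73- cells, then 4.77, 4.74 and 4.77 in CD24+CD73+ cells, and 3.91, 5.23, 4.96 and 4.84 in CD24-CD73+ cells. The Vg2+ arrays had 6.12, 5.81 and 6.07 in CD24+CD73- cells, then 5.24, 4.71, 4.50 and 5.10 in CD24+CD73+ cells, and 4.73, 4.57, 4.76 and 4.76 in CD24-CD73+ cells. Every CD24+CD73- array lay above every array of the later stages, which overlapped each other and came close to the dim end. The lowest value, 3.91, was on the array of narrowest spread. With the gain of CD73 the log2 value fell by 1.24 ± 0.22 in Vg1.1+ cells (SE, n = 3 against 4 arrays, limma adjusted p = 6.2e-04) and by 1.11 ± 0.22 in Vg2+ cells (n = 4 against 3, adjusted p = 0.00126). These are 2.36-fold and 2.16-fold lower levels. The loss of CD24 brought no further call. Its log2 differences were -0.02 (95% confidence interval -0.48 to 0.43) in Vg1.1+ cells and -0.18 (-0.61 to 0.24) in Vg2+ cells, with limma adjusted p of 0.959 and 0.598.

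Stat4, which relays the interleukin 12 signal, departed from its starting level by the test in 1 group. In Vg1.1+ cells its log2 values were 7.51, 7.76, 7.71 and 7.49 in CD24+CD73- cells, then 7.62, 7.83 and 7.55 in CD24+CD73+ cells, and 6.62, 7.15, 7.14 and 7.06 in CD24-CD73+ cells. The Vg2+ arrays had 8.09, 8.06 and 7.73 in CD24+CD73- cells, then 8.02, 7.69, 7.83 and 7.97 in CD24+CD73+ cells, and 8.15, 7.69, 8.09 and 7.96 in CD24-CD73+ cells. All 4 CD24-CD73+ Vg1.1+ arrays lay below all other arrays of the series, and the groups of Vg2+ cells overlapped. The log2 value fell by 0.67 ± 0.15 with the loss of CD24 in Vg1.1+ cells (SE, n = 4 against 3, limma adjusted p = 0.00335), a level 1.60-fold lower. In Vg2+ cells the same step gave 0.09 (-0.19 to 0.37, adjusted p = 0.697). The gain of CD73 gave 0.05 (-0.25 to 0.35) in Vg1.1+ cells and -0.08 (-0.38 to 0.22) in Vg2+ cells, and neither was called.

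Eomes appeared with CD73 in both subsets and then partly receded. In Vg1.1+ cells its log2 values were 4.57, 4.43, 4.40 and 4.24 in CD24+CD73- cells, then 6.07, 6.17 and 6.17 in CD24+CD73+ cells, and 5.36, 5.41, 5.63 and 5.68 in CD24-CD73+ cells. The Vg2+ arrays had 4.46, 4.63 and 4.42 in CD24+CD73- cells, then 5.85, 6.21, 5.78 and 5.95 in CD24+CD73+ cells, and 5.42, 5.41, 5.70 and 5.60 in CD24-CD73+ cells. In each subset the ranges of the 3 stages were separate. The log2 value rose by 1.72 ± 0.12 with the gain of CD73 in Vg1.1+ cells (limma adjusted p = 4.8e-09) and by 1.44 ± 0.12 in Vg2+ cells (adjusted p = 2.6e-08), or 3.30-fold and 2.72-fold. With the loss of CD24 it fell by 0.62 ± 0.12 in Vg1.1+ cells (adjusted p = 0.00139) and by 0.41 ± 0.11 in Vg2+ cells (adjusted p = 0.0105). In CD24-CD73+ cells it still stood above CD24+CD73- cells, by 1.11 ± 0.11 in Vg1.1+ cells (adjusted p = 1.6e-07) and 1.03 ± 0.12 in Vg2+ cells (adjusted p = 1.1e-06). The starting values lay at the dim end, so a fold from them may understate the change in RNA.

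Tbx21, the gene of T-bet, climbed more slowly and stayed near the dim end. In Vg1.1+ cells its log2 values were 4.50, 4.35, 4.24 and 4.42 in CD24+CD73- cells, then 4.73, 4.42 and 4.92 in CD24+CD73+ cells, and 5.31, 5.05, 5.18 and 5.24 in CD24-CD73+ cells. The Vg2+ arrays had 4.45, 4.51 and 4.35 in CD24+CD73- cells, then 4.70, 4.88, 5.02 and 4.64 in CD24+CD73+ cells, and 4.80, 5.59, 4.88 and 5.20 in CD24-CD73+ cells. All 7 CD24+CD73- arrays were below the table's median, and all 8 CD24-CD73+ arrays were above every one of them. From the first stage to the last the log2 value rose by 0.82 ± 0.15 in Vg1.1+ cells (limma adjusted p = 2.3e-04) and by 0.68 ± 0.16 in Vg2+ cells (adjusted p = 0.00273), or 1.76-fold and 1.60-fold. The single steps were smaller. The gain of CD73 gave 0.31 ± 0.16 in Vg1.1+ cells (adjusted p = 0.309) and 0.37 ± 0.16 in Vg2+ cells (adjusted p = 0.145), neither called, although the ranges in Vg2+ cells did not overlap. The loss of CD24 was called in Vg1.1+ cells (0.51 ± 0.16, adjusted p = 0.0424) and not in Vg2+ cells (0.31, adjusted p = 0.155). The call in Vg1.1+ cells was lost without the arrays of narrowest spread (0.47, adjusted p = 0.0748) and when any 1 of 11 arrays was left out, with adjusted p between 0.00318 and 0.222 over all alternatives.

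Ifng, which encodes interferon gamma, rose with CD73 in both subsets. In Vg1.1+ cells its log2 values were 4.21, 4.03, 4.74 and 4.72 in CD24+CD73- cells, then 5.13, 5.26 and 5.61 in CD24+CD73+ cells, and 5.90, 6.73, 5.44 and 5.65 in CD24-CD73+ cells. The Vg2+ arrays had 4.45, 4.30 and 4.01 in CD24+CD73- cells, then 5.24, 5.50, 5.34 and 5.39 in CD24+CD73+ cells, and 5.91, 5.02, 5.02 and 4.97 in CD24-CD73+ cells. No array of the first stage reached any array of the later stages. In the last stage, Vg1.1+ replicate 2 was the highest array of the series, and Vg2+ replicate 1 stood apart above the other 3 arrays of its group. The gain of CD73 gave 0.90 ± 0.26 in Vg1.1+ cells (limma adjusted p = 0.0364) and 1.12 ± 0.26 in Vg2+ cells (adjusted p = 0.00627), or 1.87-fold and 2.17-fold. The call in Vg1.1+ cells was lost when any 1 of 5 arrays of its own comparison was left out (differences 0.77 to 1.01 over all arrays left out, adjusted p 4.4e-04 to 0.195 over all alternatives). From the first stage to the last it rose by 1.50 ± 0.24 in Vg1.1+ cells (adjusted p = 7.5e-05), or 2.83-fold, and by 0.98 ± 0.26 in Vg2+ cells (adjusted p = 0.0082), or 1.97-fold. The call in Vg2+ cells was lost without CD24+CD73- replicate 3 (0.86, adjusted p = 0.0527). The loss of CD24 was called in neither subset, with 0.60 (0.05 to 1.14, adjusted p = 0.155) in Vg1.1+ cells and -0.14 (-0.64 to 0.37, adjusted p = 0.761) in Vg2+ cells.

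**Figure D1:**
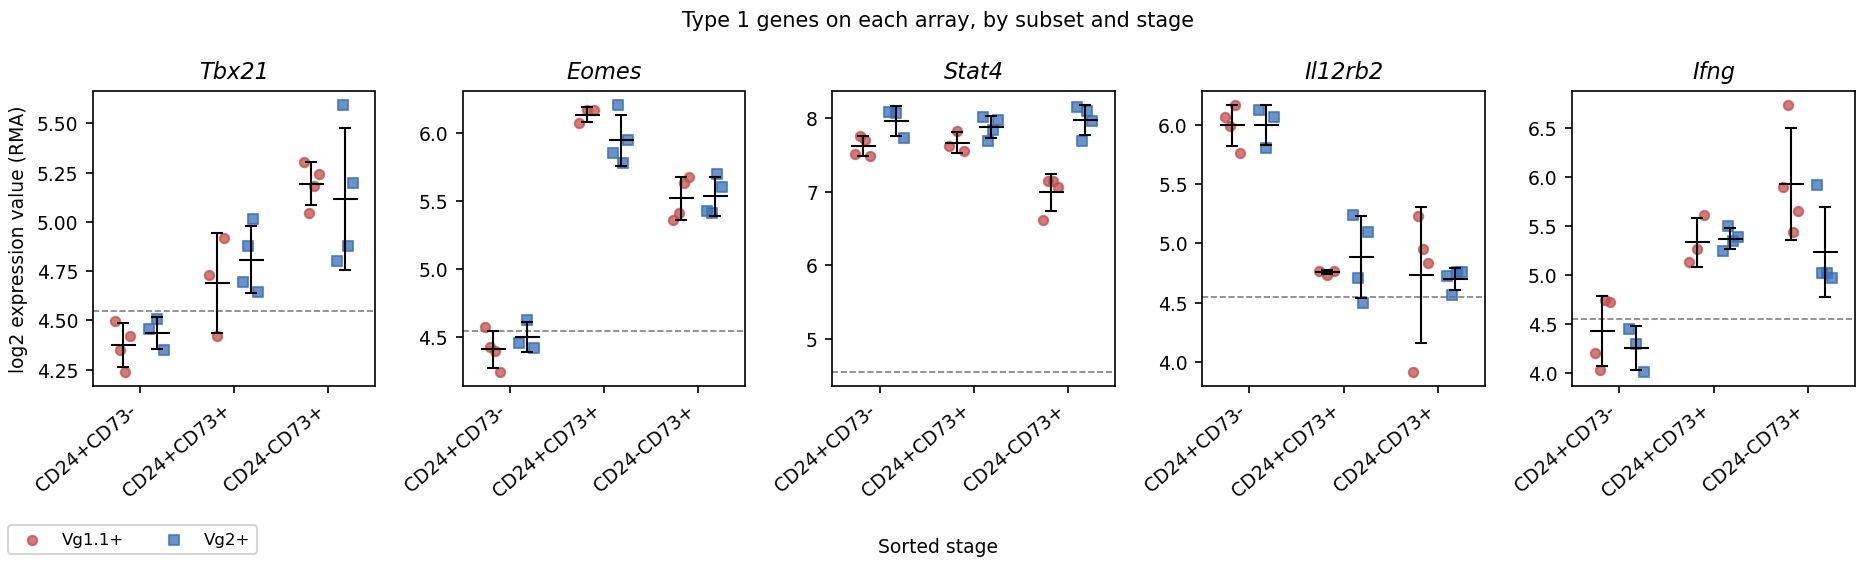
Log2 expression values (vertical axes, a scale for each gene) of the 5 type 1 genes on each array, by sorted stage (horizontal axes), with Vg1.1+ cells as circles and Vg2+ cells as squares; black bars are the mean and SD of the group, and the dashed line is the median of the whole table, 4.55. Il12rb2 is highest in CD24+CD73- cells, Eomes is highest in CD24+CD73+ cells, and Stat4 is lowest in CD24-CD73+ Vg1.1+ cells, between 6.62 and 7.15.

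Read together, 2 of the 5 genes rose and 1 fell with the gain of CD73 in each subset. The rising genes were Eomes and Ifng and the falling gene was Il12rb2 in Vg1.1+ and in Vg2+ cells. Among all tested genes 7.82% were called at this step in Vg1.1+ cells (4.37% higher, 3.45% lower) and 12.2% in Vg2+ cells (5.82% higher, 6.41% lower). With the loss of CD24, 1 gene rose (Tbx21) and 2 fell (Eomes and Stat4) in Vg1.1+ cells, where 11.2% of tested genes were called (4.28% higher, 6.92% lower), and 1 fell (Eomes) in Vg2+ cells, where 20.2% were called (10.3% higher, 9.91% lower). From the first stage to the last, 3 rose and 2 fell in Vg1.1+ cells against a background of 23.3% (9.71% higher, 13.6% lower), and 3 rose and 1 fell in Vg2+ cells against 24% (11.1% higher, 12.9% lower). The median difference of the 5 genes over this course was 0.82 in Vg1.1+ cells and 0.68 in Vg2+ cells, beside medians of -0.04 and -0.03 over all tested genes. The comparisons of stages share groups with each other, and the genes were chosen with earlier results known, so these counts are a description.

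**Figure D2:**
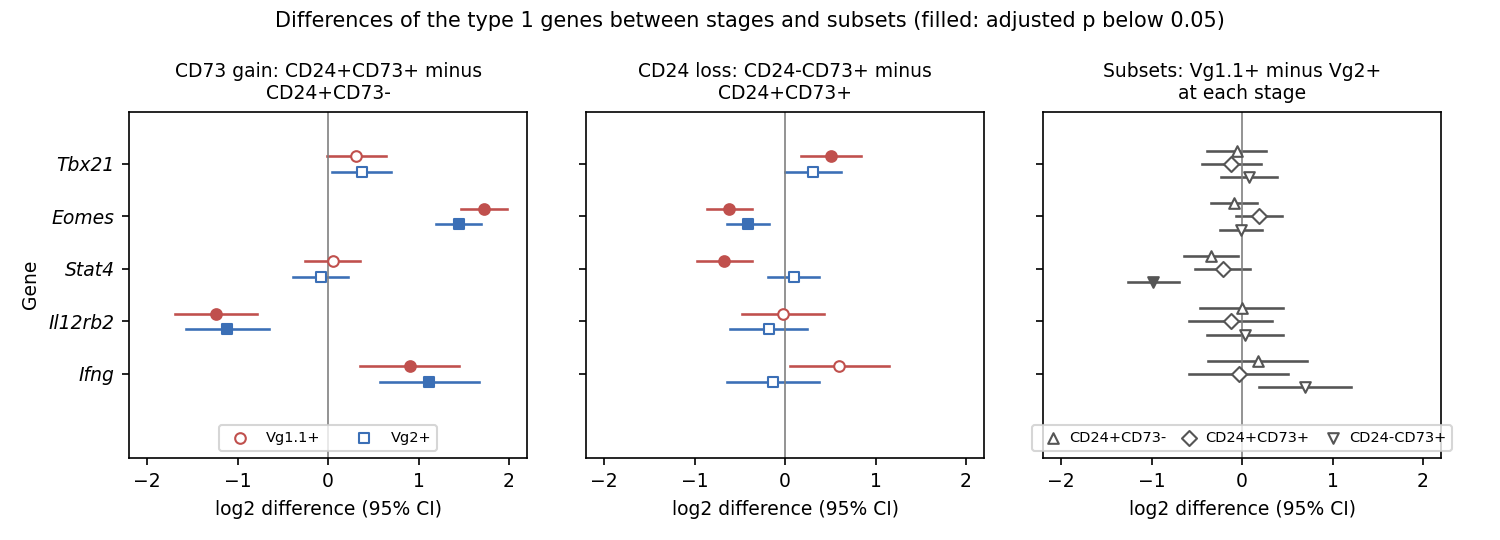
Log2 differences (horizontal axes) of the 5 genes (vertical axis) with their unadjusted 95% confidence intervals: the gain of CD73, the loss of CD24, each in Vg1.1+ (circles) and Vg2+ (squares) cells, and Vg1.1+ minus Vg2+ cells at the 3 stages; filled symbols have an adjusted p below 0.05. In the panel of subsets only Stat4 in CD24-CD73+ cells is filled, at -0.98.

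Between the subsets, Stat4 in CD24-CD73+ cells was the difference that passed the test. At CD24+CD73- the limma test called 0 of the 5 genes, with 1 (Stat4) at an unadjusted p under 0.05, where 2.05% of all tested genes were called (1.56% higher and 0.492% lower in Vg1.1+ cells). The differences, Vg1.1+ minus Vg2+, were -0.34 for Stat4 (-0.65 to -0.04, adjusted p = 0.303), -0.06 for Tbx21 (-0.39 to 0.27), -0.09 for Eomes (-0.34 to 0.16), -0.003 for Il12rb2 (-0.46 to 0.45) and 0.17 for Ifng (-0.37 to 0.72). At CD24+CD73+ the limma test called 0 of the 5, with 0 at an unadjusted p under 0.05, and 0.0117% of all tested genes, a single gene (0.0117% higher and 0% lower in Vg1.1+ cells). Their differences lay between -0.21 for Stat4 (-0.52 to 0.09) and 0.19 for Eomes (-0.06 to 0.44). A p that missed the threshold does not show that the subsets were alike, and the intervals leave room for differences of these sizes.

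At CD24-CD73+ the limma test called 1 of the 5 genes, Stat4, where 11.5% of all tested genes were called (5.79% higher and 5.72% lower in Vg1.1+ cells). Stat4 had 6.99 ± 0.25 in Vg1.1+ cells and 7.97 ± 0.21 in Vg2+ cells (log2 mean ± SD, n = 4 each), with separate ranges of 6.62 to 7.15 and 7.69 to 8.15. The difference was -0.98 ± 0.13 (-1.26 to -0.70, adjusted p = 2.5e-05), or 1.97-fold lower in Vg1.1+ cells. It was -0.86 without the arrays of narrowest spread, and between -1.08 and -0.86 as each array was left out, with adjusted p of 1.1e-06 to 2.2e-04 over all alternatives. Ifng was 0.70 ± 0.24 higher in Vg1.1+ cells without passing the test (0.19 to 1.20, adjusted p = 0.0722), and the ranges overlapped. This value turned on single arrays: it was 0.92 without Vg2+ replicate 1 (adjusted p = 0.011) and 0.43 without Vg1.1+ replicate 2 (adjusted p = 0.264). The other differences were 0.08 for Tbx21 (-0.23 to 0.38), -0.02 for Eomes (-0.25 to 0.22) and 0.03 for Il12rb2 (-0.39 to 0.45).

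The test of whether a step differed between the subsets gave a call for Stat4 alone. For the gain of CD73 limma called 0 of the 5 genes, with 0 at an unadjusted p under 0.05, where 0.0936% of all tested genes were called (0.0351% higher and 0.0585% lower). For the loss of CD24 it called 1 of the 5, where 5.06% were called (1.83% higher and 3.23% lower in Vg1.1+ cells). The step of Stat4 in Vg1.1+ cells minus that in Vg2+ cells was -0.77 ± 0.20 (adjusted p = 0.027). This call was lost without the arrays of narrowest spread (-0.63, adjusted p = 0.0573) and without Vg1.1+ CD24+CD73+ replicate 1 or 2 or Vg2+ CD24-CD73+ replicate 3 (adjusted p 0.0568 to 0.0864). Ifng gave 0.73 ± 0.36 (-0.01 to 1.48, adjusted p = 0.267).

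Ordered by group mean, the 5 genes had different breaks. Eomes ran from CD24+CD73+ cells of Vg1.1+ and Vg2+ origin, which overlapped, to the CD24-CD73+ groups, which overlapped each other, to the CD24+CD73- groups, with no overlap where the stage changed. Ifng was highest in CD24-CD73+ Vg1.1+ cells, and its order had 1 break, between the 4 later groups and the CD24+CD73- groups. Il12rb2 also had 1 break, with the CD24+CD73- groups on top. Stat4 was highest in CD24-CD73+ Vg2+ cells, and only CD24-CD73+ Vg1.1+ cells were separate from their neighbour in the order. For Tbx21 each group overlapped the next, so the order of neighbours was not resolved.

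By the correlation of log2 values over the 22 arrays, the tested genes most like Eomes were Crtam (r = 0.960), Slamf7 (0.947) and Man1c1 (0.940), of which Crtam and Slamf7 encode surface receptors of cytotoxic lymphocytes. Those most like Tbx21 were Fam151a (r = 0.891), Tns4 (0.891) and Hopx (0.887), and those most like Ifng were Arsb (0.882), Ccrl2 (0.875) and Chn2 (0.873). Stat4 was nearest to Cd96 (0.903), Lyst (0.857) and Jmjd1c (0.830), and Il12rb2 to Galnt3 (0.931), Haus4 (0.921) and Ano6 (0.920). These values are a description: the arrays share their groups, and within groups the correlations of the named genes were between 0.238 (Chn2 with Ifng) and 0.840 (Jmjd1c with Stat4).

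Promoter letters are shown for the pair of genes that moved in opposite directions with CD73, the receptor gene Il12rb2 and the product gene Ifng, because theirs were the windows with a match to a STAT site. The 300 bases from 250 before to 50 after each RefSeq gene start (build GRCm38.p6) were searched on both strands for TTCNNNGAA (the STAT site), GGTGTG (a T-box core), TGANTCA (AP-1) and TGTGGT (a RUNX core). These 4 motifs do not contain one another. Of 6 windows, covering all 5 genes and both Stat4 starts, 2 held a STAT site and 0 held any of the other motifs. In all 32851 promoters of the RefSeq table, 8.30% held TTCNNNGAA, 19.0% GGTGTG, 7.81% TGANTCA and 16.8% TGTGGT. Below are the 250 bases before the start on the gene's strand, 5′ to 3′, for Il12rb2 at chr6:67376189-67376438 (minus strand) and Ifng at chr10:118440796-118441045 (plus strand), with the STAT site match in capitals.
Il12rb2: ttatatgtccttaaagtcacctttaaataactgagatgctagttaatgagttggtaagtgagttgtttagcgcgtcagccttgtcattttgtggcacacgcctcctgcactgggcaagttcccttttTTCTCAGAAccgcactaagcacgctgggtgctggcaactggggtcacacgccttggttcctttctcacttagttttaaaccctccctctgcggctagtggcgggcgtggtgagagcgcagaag
Ifng: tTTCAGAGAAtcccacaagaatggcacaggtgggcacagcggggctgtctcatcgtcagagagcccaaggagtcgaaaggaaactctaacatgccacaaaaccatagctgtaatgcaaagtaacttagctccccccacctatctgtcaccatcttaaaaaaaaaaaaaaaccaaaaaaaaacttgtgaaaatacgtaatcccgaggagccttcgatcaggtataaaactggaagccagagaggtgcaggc
The match begins at base -123 in Il12rb2 and at base -249 in Ifng, counted from the start. It is a match of letters and says nothing of binding.

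Of 15 listed receptors and kinases around the members, 13 were on the array with 1 symbol and tested. In CD24-CD73+ cells 5 of them (Il18r1, Il18rap, Ifngr1, Ifngr2 and Socs3) were lower in Vg1.1+ than in Vg2+ cells and 0 were higher, where 11.5% of all tested genes were called. The Socs3 call (-0.80, adjusted p = 0.0133) was kept under 26 of 29 alternatives. Without the arrays of narrowest spread 5 were lower and 1 was higher. With the gain of CD73, 1 rose and 2 fell in Vg1.1+ cells, and 2 rose and 3 fell in Vg2+ cells, beside 7.82% and 12.2% of all tested genes called. Without the arrays of narrowest spread 3 rose and 2 fell in Vg1.1+ cells, and 3 rose and 3 fell in Vg2+ cells. With the loss of CD24, 2 rose and 0 fell in Vg1.1+ cells, while 8 rose and 1 fell in Vg2+ cells (8 and 2 without those arrays), beside 11.2% and 20.2% of all tested genes, with list medians of 0.004 and 0.76 beside -0.04 and 0.02 over all tested genes. Ifngr1, the ligand-binding chain, had 7.04, 7.33, 7.56 and 7.57 in CD24-CD73+ Vg1.1+ cells, against 9.58, 9.56, 9.67 and 9.60 in Vg2+ cells, with no overlap. Its difference was -2.23 ± 0.11 (limma adjusted p = 1.2e-11), that is 4.68-fold lower in Vg1.1+ cells, and that of the signalling chain Ifngr2 was -0.996 ± 0.162 (adjusted p = 1.7e-04). With the loss of CD24 Ifngr1 rose by 1.81 ± 0.11 in Vg2+ cells (adjusted p = 2.5e-10), and the test of the step between subsets gave -2.15 ± 0.17 (adjusted p = 3.3e-08). Il18rap and Il18r1, the chains of the receptor for interleukin 18, a cytokine that acts with interleukin 12, rose in both subsets. Il18r1 rose with the loss of CD24 by 3.05 ± 0.15 in Vg1.1+ cells and 4.08 ± 0.14 in Vg2+ cells (adjusted p = 3.0e-11 and 1.7e-14), so that its step differed by -1.03 ± 0.21 (adjusted p = 0.0047). Il12rb1, the partner chain of Il12rb2, fell with the gain of CD73 by 0.47 ± 0.14 in Vg1.1+ cells (adjusted p = 0.041, a call lost under 11 alternatives, with adjusted p of 8.0e-04 to 0.245) and by 1.04 ± 0.14 in Vg2+ cells (adjusted p = 1.5e-05). It rose again by 0.76 ± 0.13 with the loss of CD24 in Vg2+ cells (adjusted p = 1.5e-04), where the log2 difference of Il12rb2 was -0.18.

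**Figure D3:**
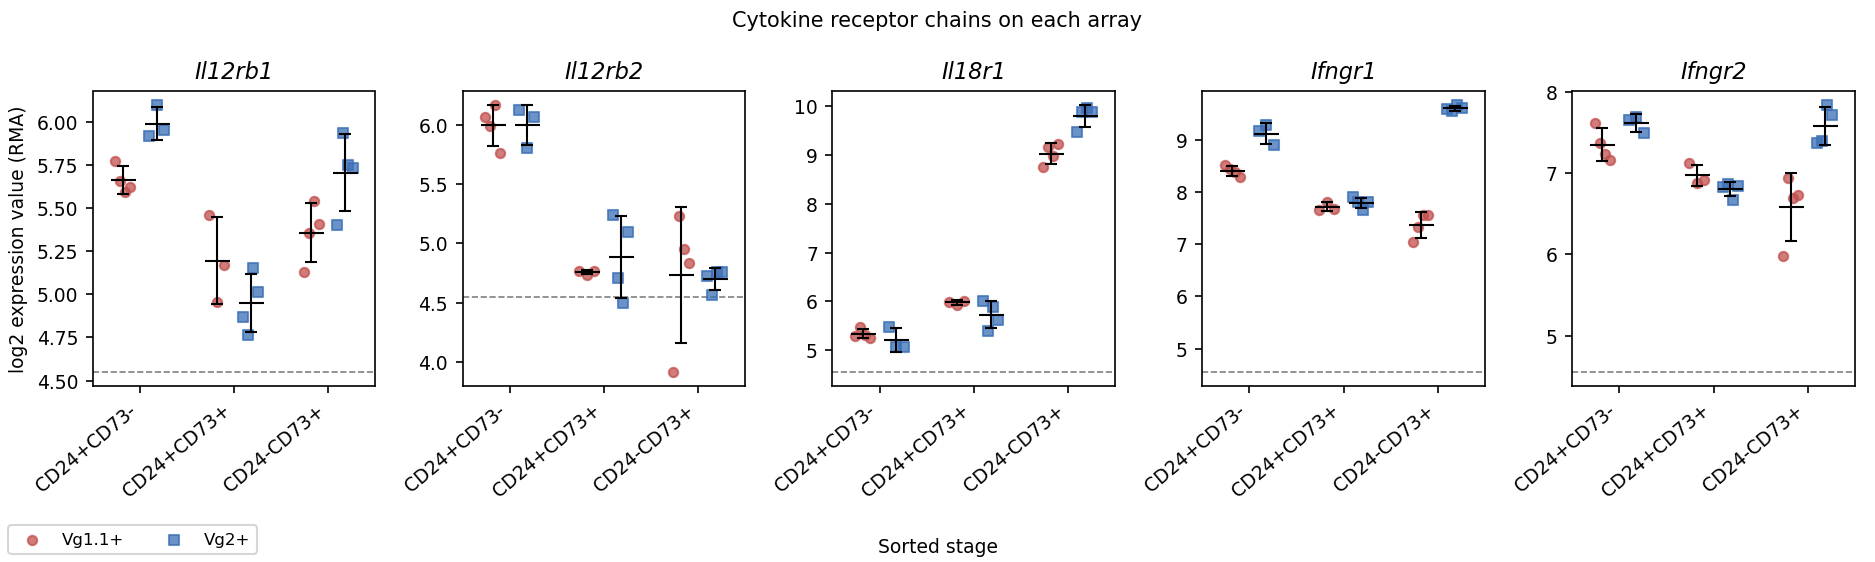
Log2 expression values (vertical axes, a scale for each gene) of the receptor chains for interleukin 12 (Il12rb1 and Il12rb2), interleukin 18 (Il18r1) and interferon gamma (Ifngr1 and Ifngr2) on each array, by sorted stage, drawn with the same symbols, bars and dashed line as the plot of the 5 members. Ifngr1 in CD24-CD73+ cells lies between 7.04 and 7.57 in Vg1.1+ cells and between 9.56 and 9.67 in Vg2+ cells.

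Other transcriptional regulators of the type 1 fate were tested for 11 of 14 listed genes. In the gain of CD73, 2 rose and 0 fell in Vg1.1+ cells and 2 rose and 2 fell in Vg2+ cells, beside 7.82% and 12.2% of all tested genes called. Id2, an inhibitor of E proteins that natural killer and effector T cells need, rose by 1.84 ± 0.25 in Vg1.1+ cells (adjusted p = 3.1e-05) and 2.53 ± 0.25 in Vg2+ cells (limma adjusted p = 2.7e-07), and again with the loss of CD24 by 1.61 ± 0.25 and 1.62 ± 0.23. Zeb2, a repressor that acts downstream of T-bet in effector T cells, rose with the gain of CD73 and fell with the loss of CD24 in both subsets. The differences were 0.68 ± 0.14 (adjusted p = 0.00216) and then -0.76 ± 0.14 (adjusted p = 6.3e-04) in Vg1.1+ cells. In Vg2+ cells they were 0.48 ± 0.14 (adjusted p = 0.0247, kept under 24 of 29 alternatives) and then -0.87 ± 0.13 (adjusted p = 2.8e-05). Its mean in CD24-CD73+ cells was 4.68 in Vg1.1+ cells and 4.56 in Vg2+ cells, against 4.76 and 4.95 in CD24+CD73- cells, whereas Eomes stayed above its first level. With the loss of CD24, 1 rose and 2 fell in Vg1.1+ cells, and 6 rose and 1 fell in Vg2+ cells, beside 11.2% and 20.2% of all tested genes. Without the arrays of narrowest spread 2 rose and 2 fell in Vg1.1+ cells, and 5 rose and 1 fell in Vg2+ cells. Bhlhe40, a factor that promotes interferon gamma production by limiting interleukin 10, had 4.32, 4.24, 4.33 and 4.02 in CD24-CD73+ Vg1.1+ cells, all at the dim end, against 5.49, 6.62, 6.09 and 6.60 in Vg2+ cells. The groups did not overlap and differed by -1.97 ± 0.19 (adjusted p = 1.4e-07). Bhlhe40 and Batf were the 2 of 11 regulators that were lower in Vg1.1+ cells at this stage, with 0 higher, where 11.5% of all tested genes were called. The Batf call (-0.47, adjusted p = 0.0392) was kept under 22 of 30 alternatives, with adjusted p of 0.0119 to 0.136.

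Among products of the programme, Ccl5, Xcl1, Fasl, Klrd1 and Cd160 rose with the gain of CD73 in both subsets and Gzma fell. Of 14 tested targets and effectors among 21 listed, 5 rose and 1 fell with the gain of CD73 in Vg1.1+ cells, and 6 rose and 1 fell in Vg2+ cells, beside 7.82% and 12.2% of all tested genes called. Without the arrays of narrowest spread 6 rose and 2 fell in Vg1.1+ cells, and 7 rose and 1 fell in Vg2+ cells. From the first stage to the last 7 rose and 1 fell in Vg1.1+ cells, with a median of 0.63, beside 9.71% higher, 13.6% lower and a median of -0.04 over all tested genes. In Vg2+ cells 11 rose and 1 fell, with a median of 1.07, beside 11.1% higher, 12.9% lower and a median of -0.03. Without those arrays 9 rose and 1 fell in Vg1.1+ cells, and 11 rose and 1 fell in Vg2+ cells. The chemokine gene Ccl5 had 9.72, 9.63 and 9.40 in CD24+CD73+ Vg1.1+ cells, against 4.60, 4.46, 4.90 and 4.32 in CD24+CD73- cells, and differed by 5.01 ± 0.28 (limma adjusted p = 4.0e-10). Cxcr3, a chemokine receptor that T-bet activates, rose with the loss of CD24 in both subsets. Its values were 7.17, 7.67, 7.77 and 7.51 in CD24-CD73+ Vg1.1+ cells, against 3.69, 3.88 and 3.92 in CD24+CD73+ cells, and 6.51, 7.09, 6.83 and 6.63 in CD24-CD73+ Vg2+ cells, against 4.72, 4.75, 3.63 and 4.09 in CD24+CD73+ cells. No array overlapped between these stages, and the log2 differences were 3.70 ± 0.25 and 2.47 ± 0.23 (adjusted p = 2.6e-09 and 7.0e-08). All 3 CD24+CD73+ Vg1.1+ arrays and 2 of 4 CD24+CD73+ Vg2+ arrays were below the table's median, so these differences may understate the change in RNA. Cxcr3 was also higher in Vg1.1+ than in Vg2+ cells at CD24-CD73+, by 0.77 ± 0.23 (adjusted p = 0.0375, a call lost under 8 alternatives, with adjusted p of 0.00584 to 0.105). Gzma, which encodes the protease granzyme A, fell by 4.68 ± 0.22 from the first stage to the last in Vg1.1+ cells and by 4.92 ± 0.24 in Vg2+ cells (adjusted p = 1.8e-12 and 1.6e-12). Furin, a protease gene that STAT4 acts on, was lower in Vg1.1+ cells at CD24-CD73+, by 0.94 ± 0.14 (adjusted p = 9.0e-05), as was Gadd45b (-0.72 ± 0.18, adjusted p = 0.00917), which encodes a stress-response protein that supports interferon gamma production.

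**Figure D4:**
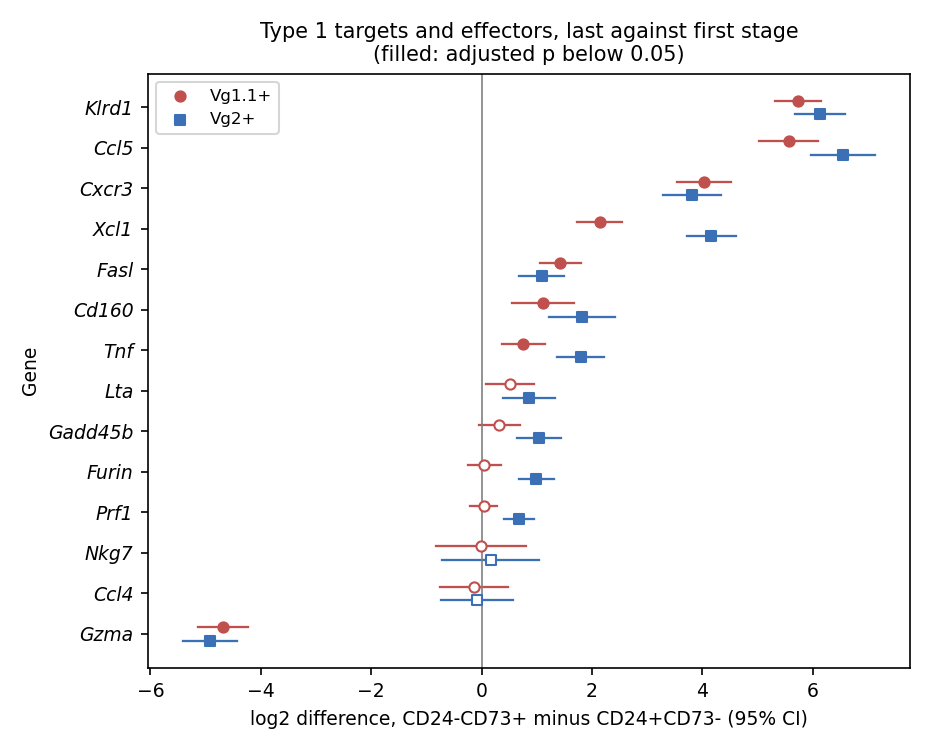
Log2 differences, CD24-CD73+ minus CD24+CD73- cells (horizontal axis), of the 14 tested targets and effectors (vertical axis) in Vg1.1+ (circles) and Vg2+ (squares) cells, with their unadjusted 95% confidence intervals; filled symbols have an adjusted p below 0.05. Klrd1 lies at 5.73 and 6.13 and Gzma at -4.68 and -4.92.

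Regulators of opposing fates were measured for 6 of 10 listed genes. With the gain of CD73, 1 rose and 3 fell in each subset, beside 7.82% and 12.2% of all tested genes called. Gata3, the regulator of type 2 T cells, fell by 0.89 ± 0.22 in Vg1.1+ cells (limma adjusted p = 0.0117) and by 1.85 ± 0.22 in Vg2+ cells (adjusted p = 3.1e-06). The call in Vg1.1+ cells was lost without CD24+CD73+ replicate 2 (-0.86, adjusted p = 0.0523). Sox13, a factor of the interleukin 17 fate, fell by 1.56 ± 0.17 in Vg1.1+ cells and by 1.70 ± 0.17 in Vg2+ cells (adjusted p = 1.3e-06 and 2.7e-07). With the loss of CD24, 3 rose (Rora, Zbtb7b and Sox13) and 2 fell in Vg1.1+ cells, and the same 3 rose and 1 fell in Vg2+ cells, beside 11.2% and 20.2% of all tested genes. Sox13 rose by 0.54 ± 0.17 in Vg1.1+ cells (adjusted p = 0.0416, kept under 18 of 30 alternatives) and by 0.85 ± 0.16 in Vg2+ cells (adjusted p = 3.2e-04). Without the arrays of narrowest spread 2 rose and 2 fell in Vg1.1+ cells, and 3 rose and 1 fell in Vg2+ cells. At CD24-CD73+, Rora (-0.58 ± 0.14, adjusted p = 0.00543) and Sox13 (-0.66 ± 0.16, adjusted p = 0.00589) were lower in Vg1.1+ than in Vg2+ cells, and Lef1 was higher. The Lef1 call was lost with a block for the replicate number (0.80, limma adjusted p = 0.0654) and with no filter (0.0522). Zbtb7b, which encodes ThPOK, rose with the loss of CD24 by 1.02 ± 0.12 in Vg1.1+ cells and 1.19 ± 0.11 in Vg2+ cells (adjusted p = 3.6e-06 and 4.2e-08).

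Markers of other cell types are given beside the members, first those of natural killer cells and group 1 innate lymphoid cells, which carry the same type 1 genes. In Vg1.1+ cells the summed log2 level of the 6 markers on the array was 18.7 to 19.4 in CD24+CD73- cells, 21.2 to 22.0 in CD24+CD73+ cells and 27.3 to 29.2 in CD24-CD73+ cells. Sums of 17.6 to 17.95 were found in Vg2+ cells at the first stage, followed by 22.2 to 23.9 and 26.4 to 26.9 at the later ones. The sums were thus higher at each later stage, with no overlap between stages. Of the 6, 4 did not pass the filter on low values, among them Ncr1, a defining natural killer receptor gene, at 1.79 to 3.17 on every array. The tested pair, Klrc2 and Tyrobp, are also expressed in gamma-delta T cells, and Tyrobp averaged 7.99 ± 0.23 in CD24-CD73+ Vg1.1+ cells and 5.33 ± 0.38 in CD24+CD73- cells (SD, n = 4 each). The sums were higher at the stages where Eomes, Tbx21 and Ifng were higher, and their part in those results was not tested. The 6 markers of alpha-beta thymocytes summed to between 30.5 and 38.4 in CD24+CD73- Vg1.1+ cells and between 26.5 and 30.7 in the other groups. The 38.4 was replicate 1, and replicates 2, 3 and 4 of that group had 31.4, 30.5 and 31.3. With the gain of CD73, where Il12rb2 fell, Cd8a and Cd8b1 fell in Vg1.1+ cells and Cd8b1 fell in Vg2+ cells. The Cd8b1 call in Vg2+ cells was lost with a block for the replicate number (limma adjusted p = 0.0962). It was also lost with no filter (0.0662) and with array spread as a covariate (0.0607). Without the arrays of narrowest spread 3 of the 4 tested markers fell in Vg1.1+ cells. The 7 myeloid and dendritic cell markers summed to 27.0 to 29.6 in CD24+CD73+ Vg2+ cells, against 25.4 to 25.95 in CD24+CD73- Vg2+ cells, with no overlap. All 3 tested ones (Cd68, C1qb and H2-Aa) rose at this step, where Eomes and Ifng rose, and 0 of the 3 were called in Vg1.1+ cells. The H2-Aa call was lost with a block for the replicate number (limma adjusted p = 0.0874), with no filter (0.0715) and with cyclic loess (0.0785). C1qb exceeded the table's median on 0 of 3 CD24+CD73- and 2 of 4 CD24+CD73+ Vg2+ arrays. Of the tested pair of innate-like T-cell markers, Slamf6 rose with the gain of CD73 in both subsets and Cxcr6 rose with the loss of CD24 in both. With the loss of CD24, Slamf6 fell in Vg2+ cells and was not called in Vg1.1+ cells. Without the arrays of narrowest spread both markers were called higher with the gain of CD73 in each subset. The Cxcr6 call with the loss of CD24 in Vg1.1+ cells was lost with a block for the replicate number (limma adjusted p = 0.101). With no filter it was lost as well (0.0643). At CD24-CD73+, where Stat4 was lower in Vg1.1+ cells, C1qb, Cxcr6 and the B-cell marker Cd79b were also lower there. Slamf6 was higher in Vg1.1+ cells. Of 4 B-cell markers on the array 2 were tested, and Cd79b was the 1 called. The 4 summed to 16.7 to 18.7 in Vg1.1+ and 19.0 to 19.8 in Vg2+ cells at this stage. Cd79a, which did not pass the filter, averaged 4.12 in Vg1.1+ and 3.98 in Vg2+ cells. The C1qb call was lost with a block for the replicate number (limma adjusted p = 0.074) and with no filter (0.0575). C1qb exceeded the table's median on 0 of 4 Vg1.1+ and 1 of 4 Vg2+ arrays at this stage. Cd68, of the same list, averaged 5.61 in Vg1.1+ and 5.20 in Vg2+ cells and was not called. Without the arrays of narrowest spread 1 of the 3 tested myeloid markers was higher in Vg1.1+ cells and 1 was lower. The part of these cell types in the results was not tested.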

How the data were processed

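RNA of sorted thymocytes was measured on 22 arrays in 6 groups of gamma-chain subset and stage. The authors deposited log2 expression values. RMA and the oligo package are named by the submitters' processing notes, and versions, normalisation batches and the genome build are not given in the sources used here. Per the labels, Trizol was used for total RNA and the label was biotin. The members and gene lists were chosen with earlier results of these data known.

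Of 16755 probe sets, 14996 listed 1 gene symbol, 1019 several and 740 none, and only those with 1 were used, by the probe set of highest mean where a gene had several. The filter kept the 8545 genes above the table's median log2 value (4.55) on 3 or more arrays. Limma 3.58.1 (R 4.3.3) was given all arrays with a mean for each group and no covariate. Its moderated tests of 11 contrasts were two-sided, Benjamini-Hochberg values were taken over the tested genes within a contrast, and calls were made at 0.05 whatever the fold. The fits were tested on simulated data. Slide and scan date were not used here, so batches could not be examined. Of the pathway lists, at most 2 genes per list, direction and contrast were to be named, those of largest difference past the threshold, and the text gives a selection. Values of further genes of the lists that the figures plot, and the 3 tested genes of highest Pearson r with each member, were also named. Listed genes not found with 1 symbol were not analysed here. Promoters were read from a RefSeq table with GRCm38.p6 coordinates. Alternatives were a block for the replicate number, dropping the filter, raising it to the 65th percentile (5.46), eBayes with a trend and robust fitting, array weights, cyclic loess, each array's spread as a covariate, leaving out the arrays of narrowest spread, counting all probe sets with 1 symbol, and leaving out each array singly.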

Additional observations from a re-analysis of the deposited data

Results flagged for a closer look

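Ifng in Vg2+ CD24-CD73+ replicate 1 was 5.91, far above the other 3 arrays of its group (4.97 to 5.02). Stat4 in Vg1.1+ CD24-CD73+ replicate 1 was 6.62, far below the other 3 (7.06 to 7.15), and this is the array of narrowest spread. Gaps were checked in 20 groups of 4 arrays and 2 stood out, while chance flags about 1 group in 20.

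The loss of CD24 moved Stat4 differently in the subsets: the step in Vg1.1+ cells minus that in Vg2+ cells was -0.77 (limma adjusted p = 0.027). This call was lost with the replicate block (adjusted p = 0.0747), without the arrays of narrowest spread (0.0573) and when any 1 of 3 arrays was left out (0.0568 to 0.0864).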

How the results depend on the processing

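Over 31 settings beside the reported one, no value of the 5 genes that passed the test changed sign. Of their 55 differences 21 were called, and 17 of these kept their call under every alternative tried for them. Of 34 not called, 32 stayed so. The calls of Eomes and Il12rb2 were all among the 17. The stricter filter left 6280 genes and no value for Tbx21.

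The labels do not say whether the replicate number pairs samples. Over 51 same-numbered pairs the deviations from the group means correlated at a median r of -0.158, with 6 over 0.1. They ran from -0.672 to 0.558, beside a median of 0.042 over pairs of other numbers. Such correlations cannot show whether same-numbered samples shared mice or a preparation. With the replicate block, the gain of CD73 gave 0.89 for Ifng in Vg1.1+ cells (adjusted p = 0.092), the loss of CD24 gave 0.50 for Tbx21 in Vg1.1+ cells (0.0962) and the Stat4 difference between the steps was -0.77 (0.0747), none of them called. With no filter, Ifng gave 0.90 (adjusted p = 0.0562) and Tbx21 0.51 (0.0639) in these same comparisons. The loss of CD24 gave 0.39 for Tbx21 with the array spread as a covariate (0.122) and 0.47 without the arrays of narrowest spread (0.0748), where the Stat4 difference between the steps was -0.63 (0.0573). With array weights the gain of CD73 gave 0.43 for Tbx21 in Vg1.1+ cells and was called (0.00348), but the estimate of the weights stopped before full convergence, which holds for every count with weights below. The cause was not tested.

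As arrays were left out, the gain of CD73 for Ifng in Vg1.1+ cells ranged from 0.77 to 1.01, and its call ended (adjusted p 0.061 to 0.195) without Vg1.1+ CD24+CD73- replicate 1 or 2 or any array of Vg1.1+ CD24+CD73+ cells. The loss of CD24 for Tbx21 in Vg1.1+ cells ranged from 0.37 to 0.62. It was not called (adjusted p 0.0506 to 0.222) without Vg1.1+ CD24+CD73- replicate 2 or 4, CD24+CD73+ replicate 1 or 2, CD24-CD73+ replicate 1, 3 or 4, nor without any array of CD24+CD73- Vg2+ cells or replicate 4 of CD24-CD73+ Vg2+ cells. The Stat4 difference between the steps ranged from -0.86 to -0.64, the course of Ifng in Vg2+ cells from 0.75 to 1.08, and Ifng between the subsets at CD24-CD73+ from 0.43 to 0.92, called without replicate 1 of the Vg2+ group (adjusted p = 0.011) or replicate 3 of the Vg1.1+ group (0.0306) at that stage.

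The counts over all genes moved more. Vg1.1+ against Vg2+ cells at CD24+CD73- (175 genes) gave 65 with the replicate block, 115 with no filter, 1203 with array weights, 354 with the spread as a covariate, 367 without the arrays of narrowest spread, and 63 to 294 as arrays were left out. At CD24+CD73+ (1 gene) the settings gave 0 with the block, with no filter and with the covariate, 436 with weights, 5 with cyclic loess, 7 without the narrow arrays, and 0 to 97 as arrays were left out. At CD24-CD73+ (984) weights gave 1791 and the covariate 1564. The gain of CD73 in Vg1.1+ cells (668) gave 2572 with weights, 1131 with the covariate and 437 to 863 as arrays were left out, and the loss of CD24 there (957) gave 2608 with weights and 623 to 1223. The course in Vg1.1+ cells (1994) gave 3361 with weights. The difference between subsets in the gain of CD73 (8) gave 445 with weights, 34 with cyclic loess, 41 with the covariate, 15 without the narrow arrays and 7 to 24 as arrays were left out, and in the loss of CD24 (432) 250 with the block, 1048 with weights and 265 to 578. Of the 212 calls of list genes 161 were kept by every alternative. Dim values limit the folds of genes with a group near or below the table's median, among them Tbx21, Eomes, Il12rb2, Ifng, Cxcr3, Ccl5, Klrd1, Fasl, Gadd45b and Bhlhe40.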

Other observations

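Xcl1, a chemokine gene that cytotoxic lymphocytes share with the type 1 programme, had the widest difference of the 14 tested targets between the subsets in the first stage. Its log2 values were 8.01, 8.16, 8.76 and 8.07 in CD24+CD73- Vg1.1+ cells, against 6.27, 6.27 and 6.44 in Vg2+ cells, with no overlap. The difference was 1.93 ± 0.21 (limma adjusted p = 4.9e-05). With the gain of CD73 Xcl1 rose by 4.09 ± 0.21 in Vg2+ cells (adjusted p = 4.0e-11), and the step in Vg1.1+ cells minus that in Vg2+ cells was -2.02 ± 0.30 (adjusted p = 0.00407). In CD24+CD73+ cells the values were 10.48, 10.42 and 10.06 in Vg1.1+ cells and 10.65, 10.41, 9.85 and 10.72 in Vg2+ cells, which overlapped.

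Within groups, over the 22 arrays, the deviations of Tbx21 and Stat4 from their group means correlated at r = -0.66, and those of Il12rb2 and Stat4 at r = 0.66. Il12rb2 and Stat4 were both low on the array of narrowest spread, replicate 1 of the Vg1.1+ CD24-CD73+ group. There Il12rb2 was 3.91 beside a group mean of 4.73, and Stat4 was 6.62 beside 6.99. These correlations were not computed without that array. The arrays differ in spread, whether all were normalised together is not known here, and the values are a description.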
